A study of Mus musculus with 6 samples.

Results

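The DNA damage checkpoint and repair genes described here are 36 genes chosen by name, from the kinases that signal damage to the enzymes that repair it. They were found on the array as 44 probes, and each gene was represented by the probe with the highest mean signal among those above background. All 36 were among the 14425 genes tested, of 22230 genes named on the array, and all 36 were well above background on all 6 arrays, so none entered through 1 group alone. The RNA came from G1E-ER-GATA-1, a mouse line of red cell precursors with no working Gata1 gene, into which GATA-1 was returned as a fusion with the part of the estrogen receptor that binds hormone. The 3 control arrays came from cells given non-targeting siRNA and the 3 SetD8 arrays from cells given siRNA against Setd8 (current symbol Kmt5a), the enzyme that places a single methyl group on lysine 20 of histone H4. In both groups siRNA was delivered at 0 h and 24 h, β-estradiol was present for 24 h to start GATA-1-driven red cell maturation, and RNA was taken at 48 h, so the deletion, the fusion protein and the hormone are shared by all 6 arrays. The comparison asks how the transcripts of these genes differ between cells given SetD8 siRNA and control cells. The labels do not state whether arrays within a group stem from separate cultures, so p-values measure only how far these arrays spread, part or all of which may be technical.

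A DNA break or a stalled replication fork is sensed by protein complexes that activate the kinases ATM and ATR, which pass the signal to CHK2 and CHK1 and hold the cell cycle. Breaks are then repaired by homologous recombination, which copies an intact strand, or by end joining, crosslinks are removed through the Fanconi pathway, and altered or mispaired bases through excision and mismatch repair. Monomethylation of histone H4 lysine 20 is laid down as cells pass through G2 and mitosis, and loss of the enzyme is known to disturb replication and to bring on damage signalling in dividing cells. Maturing red cell precursors also slow and then leave the cell cycle. Many repair genes are transcribed mostly in cycling cells, so RNA from a population can hold less of them because fewer cells cycle or because each cell has less, and these cannot be told apart in bulk samples.

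The targeted gene was lower on every SetD8 array. Values on single arrays are given below on the log2 scale after a normexp background correction followed by quantile normalization. On that scale the main Setd8 probe read 11.50, 11.58 and 11.25 on the control arrays, in the order of their numbers, and 9.58, 9.26 and 9.25 on the SetD8 arrays. The difference was −2.08 ± 0.15 (SE), or 4.23-fold lower, and limma with Benjamini-Hochberg adjustment over all genes gave an adjusted p of 0.00838. That p was 0.0621 to 0.076 when control 1, SetD8 1, SetD8 2 or SetD8 3 was left out, and a second Setd8 probe differed by −1.13. With each array's signal scaled to its 75th percentile the main probe's difference was −2.23 ± 0.48 with an adjusted p of 0.557. The control arrays differed most from each other: the share of spots well above background ran from 40.2% on control 2 to 82.5% on control 3, against 60.3% to 68.6% on the SetD8 arrays. Control 1, SetD8 1 and SetD8 2 lay on slide 1, control 2 alone on slide 2, and control 3 and SetD8 3 on slide 3. Of the red cell markers, 8 of 10 were measured, with a summed log2 level of 18.5 on all 6 arrays, and the other 2, Hbb-b1 and Ahsp, were not found under those names. That sum is set mostly by the brightest transcripts: single differences ran from −1.21 to 0.41, and Slc4a1, the red cell anion exchanger, was lower on every SetD8 array (−1.21 ± 0.38, limma adjusted p of 0.183). It was called lower (limma adjusted p of 0.0301) with the 75th percentile scaling where only probes well above background on all arrays were kept. Summed levels of the other cell types' markers were lower: 13.0 to 14.7 for megakaryocytes (6 of 6 measured), 14.3 to 14.5 for granulocytes and macrophages (5 of 7, Mpo and Lyz2 not kept), 9.26 to 10.7 for lymphoid cells (2 of 4), 7.95 to 8.38 for mast cells (2 of 6), and 7.73 to 8.90 for stromal and endothelial cells (2 of 4). Gp1ba and Cd68 rose among them, by 0.79 ± 0.13 and 0.73 ± 0.11 log2, with limma adjusted p-values of 0.0474 and 0.0336. These were 0.115 and 0.134 with the slide as a block. Neither call held without control 1, control 2 or any 1 SetD8 array, nor that of Cd68 without control 3. Of all genes 0% were called without control 1, SetD8 1 or SetD8 2. With the mean of a gene's probes neither was called. The lowest limma adjusted p was then 0.0504 among megakaryocyte and 0.351 among granulocyte and macrophage markers. Gp1ba was also not called without the background filter or with a smaller offset in the background correction, where Cd68 was. The part of these cells in the values below was not tested.

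Most of the 36 genes had slightly less signal with SetD8 siRNA, and none of the differences passed the test. After normexp and quantile normalization 31 of 36 differences (SetD8 minus control) were below 0, where 45.7% of all genes were, and 51.4% of the 10823 genes well above background on every array. Their median was −0.21 on the log2 scale, with quartiles of −0.29 and −0.11, beside a median of 0.03 over all genes tested. The extremes were −0.76 for Exo1 and 0.19 for Chek2, and fold sizes ran from 1.01 to 1.70. In limma with Benjamini-Hochberg adjustment 0 of 36 were called lower and 0 higher, beside 0.25% and 1.4% of all genes, and adjusted p-values lay between 0.0642 and 0.981. At an unadjusted p under 0.05, 7 of 36 were lower and 0 higher, beside 6.75% and 9.12% of all genes. The 7 were Fancb, Fanca, Exo1, Mdc1, Xrcc3, Rad1 and Clspn. Every SetD8 array lay below every control array for 13 of 36 and above for 0, beside 10.5% and 13.3% of all genes.

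At the 75th percentile scaling the members were again mostly below 0, and the spread between arrays was wider. Atm and Chek1 turned to above 0 there and Brca2, Fanci and Xrcc1 to below 0. The median residual SD over genes was 0.487 log2 there, against 0.213 after normexp and quantile normalization. Differences below 0 were found for 32 of 36 members, beside 45.8% of all genes, with a median of −0.38 against 0.06 over all genes. In limma with Benjamini-Hochberg adjustment 0 members were called lower and 0 higher, beside 0% and 0% of all genes, and the adjusted p-values ran from 0.928 to 0.991. At an unadjusted p under 0.05 the counts were 0 lower and 0 higher, beside 0.679% and 2.83%. The arrays of Clspn and Fancb did not overlap, 2 of 36 lower and 0 higher, beside 2.52% and 5.86% of all genes.

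**Figure D1:**
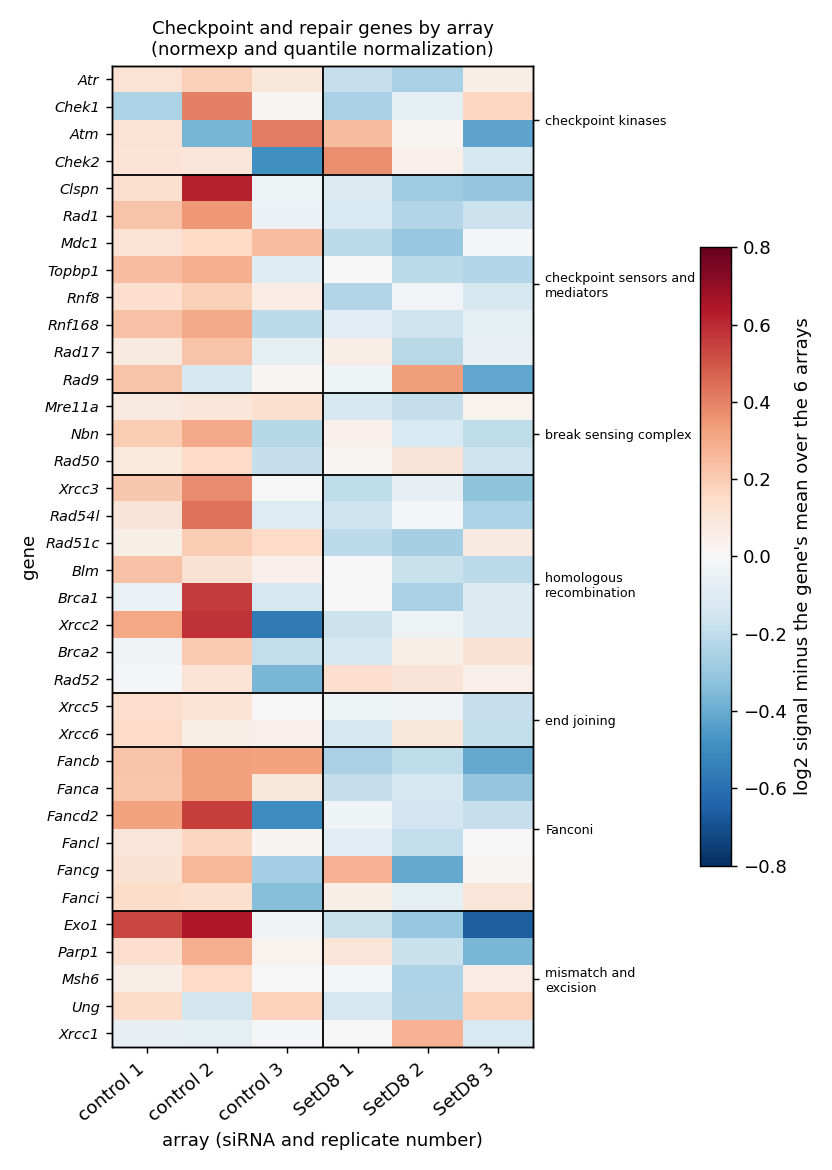
Log2 signal of each of the 36 genes (rows, in 7 functional groups) on each of the 6 arrays (columns) after normexp and quantile normalization, as the deviation from the gene's own mean over the arrays; red is higher and blue lower. Control 2 is the highest array for 23 of the 36 genes and SetD8 3 the lowest for 14.

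Of the 36 genes, 30 had a promoter window in the RefSeq table of assembly GRCm38.p6, from 250 bases before to 50 after the annotated start, and 6 were not matched (Nbn, Rad50, Fancd2, Exo1, Rad9 and Xrcc2). E2F factors drive many replication and repair genes in late G1, so the windows were searched on both strands for TTTCCCGC, TTTGGCGC, TTTCGCGC and TTTGCCGC. One or more of these words stood in the windows of 9 of the 30 genes (30%), against 2.6% of 27025 genes in the table and 2.26% of 32851 windows. The CCAAT word stood in 53.3% of the 30 and 41.1% of all genes. The words TTTGAA and TTCGAA, found in promoters of late cell cycle genes, stood in 6.67% and 21.7%, and TATAAA in 6.67% and 15.7%. The stretches upstream of the start are printed below for the 6 genes whose match lay before the start, because they show where an E2F word sits in each. The word and its position differ between these genes. Fancb, the member nearest to the threshold of the test, is printed as a stretch with no such word. Capitals mark the E2F word on either strand, each stretch reads 5′ to 3′ on the gene's strand, and coordinates are GRCm38.p6.
Mdc1, chr17:35841378-35841497, plus strand: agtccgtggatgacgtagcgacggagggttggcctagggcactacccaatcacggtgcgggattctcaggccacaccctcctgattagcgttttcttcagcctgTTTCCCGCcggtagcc
Topbp1, chr9:103305188-103305326, plus strand: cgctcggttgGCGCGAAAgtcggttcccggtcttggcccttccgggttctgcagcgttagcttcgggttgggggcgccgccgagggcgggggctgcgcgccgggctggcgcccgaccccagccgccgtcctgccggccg
Xrcc6, chr15:82016249-82016368, plus strand: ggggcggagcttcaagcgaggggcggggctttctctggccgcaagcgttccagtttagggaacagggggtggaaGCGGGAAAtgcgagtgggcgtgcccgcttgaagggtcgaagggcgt
Fancg, chr4:43010302-43010421, minus strand: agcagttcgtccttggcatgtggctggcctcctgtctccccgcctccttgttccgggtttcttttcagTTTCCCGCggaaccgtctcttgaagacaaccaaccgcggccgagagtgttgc
Brca2, chr5:150522443-150522620, plus strand: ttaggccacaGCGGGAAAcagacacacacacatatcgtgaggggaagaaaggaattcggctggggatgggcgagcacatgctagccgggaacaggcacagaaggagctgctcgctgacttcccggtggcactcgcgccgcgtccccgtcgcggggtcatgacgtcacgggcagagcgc
Chek2, chr5:110839821-110839982, plus strand: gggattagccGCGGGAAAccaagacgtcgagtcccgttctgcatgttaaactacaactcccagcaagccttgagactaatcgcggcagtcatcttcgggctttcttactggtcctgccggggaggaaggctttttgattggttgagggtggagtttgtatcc
Fancb, chrX:164980472-164980591, plus strand: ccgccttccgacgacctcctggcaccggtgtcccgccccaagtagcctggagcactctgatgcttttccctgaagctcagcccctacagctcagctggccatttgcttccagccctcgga
Of the 30 genes with a window, those with an E2F word did not have the lower median, and the difference between them was not tested. Exo1, which had the most negative difference of all 36, had no window and is in neither set. Among the 9 with a match in the window, which include Clspn, Rad51c and Msh6, 7 differences were below 0 and the median was −0.16, from −0.47 to 0.19. Among the 21 without, 18 were below 0 and the median was −0.22, from −0.58 to 0.18. A matching word is a description of these letters and not a site shown to be bound.

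The checkpoint kinases were the group whose median lay nearest to 0. It was −0.11, with 3 of 4 below 0, and 0.03 with 1 of 4 below 0 at the 75th percentile scaling. Atr, the kinase activated by single-stranded DNA at stalled forks, had log2 signals of 9.79, 9.86 and 9.77 on the controls and 9.49, 9.42 and 9.72 on the SetD8 arrays. All 3 SetD8 arrays lay below the controls, SetD8 3 only just, and the difference was −0.26 ± 0.12 with a limma adjusted p of 0.367. A second Atr probe gave −0.43. Chek2, the effector kinase downstream of ATM, was 8.77, 8.75 and 8.17 on the controls and 9.03, 8.70 and 8.53 on the SetD8 arrays. Its groups overlapped, control 3 being the low array, and the difference was 0.19 ± 0.22 with a 95% interval of −0.33 to 0.71. Chek1, which relays the ATR signal, differed by −0.11 ± 0.20, and Atm, the kinase activated by double-strand breaks, by −0.10 ± 0.26. The Chek1 probe was dim, at 6.44 to 7.10 on the 6 arrays, where the offset of the background correction shrinks differences. The 95% intervals of all 4 kinases included 0, that of Atr being −0.56 to 0.03, so no direction was resolved. The signs of Atm, Chek1 and Chek2 changed in 2, 2 and 1 of 13 alternative settings.

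All 8 checkpoint sensors and mediators had negative differences in both settings, with medians of −0.27 and −0.44. Clspn encodes claspin, the adaptor through which ATR phosphorylates CHK1. Its signals were 7.89, 8.38 and 7.73 on the controls and 7.65, 7.48 and 7.46 on the SetD8 arrays. The groups did not overlap, but control 2 stood well above the other controls, and the difference of −0.47 ± 0.19 (limma adjusted p of 0.295) was −0.28 when control 2 was left out. Mdc1, which reads phosphorylated H2AX at breaks, was 9.77, 9.81 and 9.90 on the controls and 9.44, 9.35 and 9.64 on the SetD8 arrays. Its controls were close together and all above the SetD8 arrays, a difference of −0.35 ± 0.12 with a limma adjusted p of 0.221. Rnf8, a ubiquitin ligase recruited by MDC1, was 10.08, 10.13 and 10.01 on the controls and 9.71, 9.92 and 9.82 on the SetD8 arrays, again without overlap, with a difference of −0.26 ± 0.11.

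Rad1, a subunit of the 9-1-1 clamp that marks damaged DNA for ATR, is the member whose probes disagreed in sign after normexp and quantile normalization. The brighter probe read 10.14, 10.26 and 9.86 on the controls and 9.78, 9.67 and 9.73 on the SetD8 arrays, a difference of −0.36 ± 0.14. The dimmer probe read 7.45, 7.20 and 8.12 on the controls and 7.89, 7.50 and 7.74 on the SetD8 arrays, with overlapping groups and a difference of 0.12 ± 0.25. With the mean of both probes the Rad1 difference was −0.12. At the 75th percentile scaling the Rad1 probes also disagreed, at −0.50 ± 0.47 and 0.47 ± 0.58. So did the probes of Atm (0.04 ± 0.48 and −0.39 ± 0.50) and of Fanci (−0.07 ± 0.42 and 1.08 ± 1.23) at that scaling, the brighter probe given first. The clamp's partner Rad9 differed by −0.08 ± 0.21 and its loader Rad17 by −0.16 ± 0.14. Topbp1, the activator of ATR, differed by −0.29 ± 0.15, and Rnf168, the ubiquitin ligase that acts after RNF8, by −0.22 ± 0.16. The arrays of these 4 overlapped between groups.

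The MRN complex binds broken ends and activates ATM. Its nuclease subunit Mre11a was 10.23, 10.26 and 10.29 on the controls and 10.02, 9.97 and 10.19 on the SetD8 arrays. The controls lay within a narrow band above all SetD8 arrays, and the difference was −0.20 ± 0.11 (limma adjusted p of 0.464). Nbn differed by −0.19 ± 0.17 and Rad50 by −0.03 ± 0.14, both with overlapping arrays, and a second Rad50 probe gave −0.25. The 3 subunits were all below 0 in both settings, with medians of −0.19 and −0.27.

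**Figure D2:**
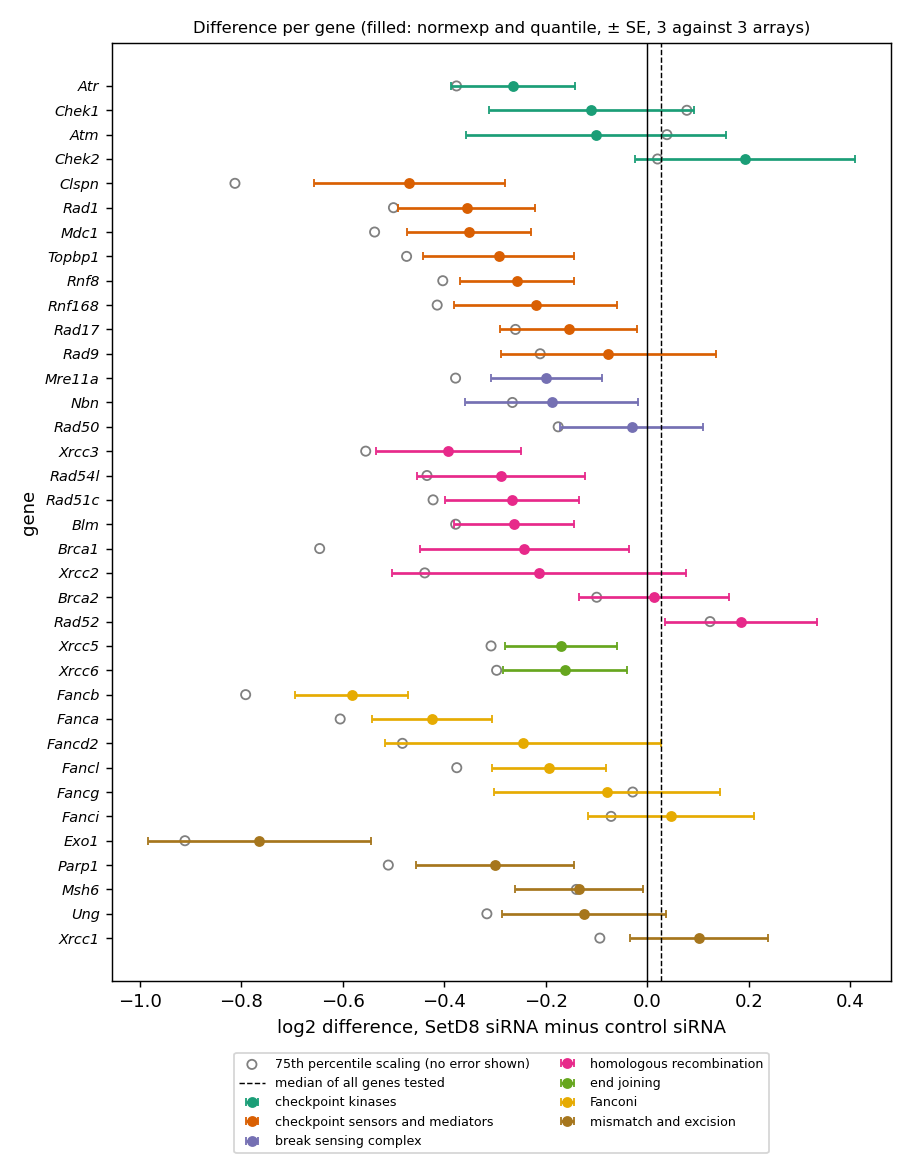
Difference of each of the 36 genes, SetD8 siRNA minus control siRNA on the log2 scale (x axis), in 7 functional groups. Filled points with bars are the difference ± SE after normexp and quantile normalization, open points the difference at the 75th percentile scaling, and the dashed line the median of all genes tested (0.03). Most filled points lie left of that line, from −0.76 for Exo1 to 0.19 for Chek2.

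Among the 8 homologous recombination genes 6 differences were below 0, with a median of −0.25 (7 of 8 and −0.43 at the 75th percentile scaling). Xrcc3, which acts in strand invasion and in resolving recombination intermediates, had the most negative difference. Its signals were 9.38, 9.54 and 9.16 on the controls and 8.97, 9.10 and 8.84 on the SetD8 arrays. The lowest control was just above the highest SetD8 array, and the difference was −0.39 ± 0.14 with a limma adjusted p of 0.243. Blm, the RecQ helicase that dissolves recombination intermediates, was 11.87, 11.76 and 11.67 on the controls and 11.64, 11.46 and 11.42 on the SetD8 arrays. The groups again did not overlap, by a small margin, with a difference of −0.26 ± 0.12 and a 95% interval of −0.55 to 0.02. Rad52, which anneals complementary strands, was 8.73, 8.85 and 8.38 on the controls and 8.88, 8.85 and 8.79 on the SetD8 arrays. Control 3 was the only array well below the others, and the difference was 0.18 ± 0.15 with a 95% interval of −0.17 to 0.54.

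The other recombination genes overlapped between groups. Rad54l, a DNA translocase, differed by −0.29 ± 0.17, and Rad51c and Xrcc2, which act together in a recombination complex, by −0.27 ± 0.13 and −0.21 ± 0.29. Brca1, the scaffold of resection and checkpoint complexes, differed by −0.24 ± 0.21, with a dim probe at 6.58 to 7.39 on the 6 arrays. Brca2, a mediator of strand invasion, differed by 0.01 ± 0.15. Several of these rested on control 2. Brca1 read 7.39 there against 6.78 and 6.70 on the other controls, and without control 2 the differences were −0.03 for Brca1, 0.02 for Xrcc2 and −0.14 for Rad54l.

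Xrcc5 and Xrcc6 encode Ku80 and Ku70, which together form the ring that starts end joining. Xrcc5 was 9.66, 9.63 and 9.52 on the controls and 9.48, 9.50 and 9.34 on the SetD8 arrays, without overlap and with a difference of −0.17 ± 0.11. Xrcc6 differed by −0.16 ± 0.12, with SetD8 2 among the controls. Both were also below 0 within each slide, and their limma adjusted p-values were 0.544 and 0.616.

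The Fanconi genes hold the member nearest to the threshold and others with no resolved direction. Fancb encodes a subunit of the core complex that ubiquitinates FANCD2 and FANCI at crosslinks, and its probe lies at chrX:161434946-161435005 (mm9). Its signals were 8.65, 8.75 and 8.75 on the controls and 8.17, 8.22 and 8.01 on the SetD8 arrays. The groups were tight and well apart, a difference of −0.58 ± 0.11 (1.50-fold lower, 95% interval −0.85 to −0.32) with a limma adjusted p of 0.0642. At the 75th percentile scaling Fancb differed by −0.79 ± 0.33. Fanca, another core subunit, was 10.69, 10.80 and 10.56 on the controls and 10.28, 10.34 and 10.16 on the SetD8 arrays. It too had no overlap, with a difference of −0.42 ± 0.12 and a limma adjusted p of 0.144. Fancl, the ubiquitin ligase of the complex, was 10.87, 10.94 and 10.79 on the controls and 10.68, 10.57 and 10.76 on the SetD8 arrays. SetD8 3 nearly reached control 3, and the difference was −0.19 ± 0.11 with a 95% interval of −0.46 to 0.08.

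The targets of that ligase had no resolved direction. Fancd2 differed by −0.25 ± 0.27, with control 3 the lowest of the 6 arrays, and by −0.03 without control 2. Fanci, its partner, was 9.28, 9.26 and 8.79 on the controls and 9.18, 9.06 and 9.23 on the SetD8 arrays, so that only control 3 stood apart, and it differed by 0.05 ± 0.16. The core subunit Fancg differed by −0.08 ± 0.22. The 6 Fanconi genes had a median of −0.22 with 5 below 0, and −0.43 with 6 below 0 at the 75th percentile scaling.

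Exo1, the exonuclease of mismatch repair and of break resection, had the most negative difference of all 36. Its probe lies at chr1:177838682-177838741 (mm9), and its signals were 10.70, 10.80 and 10.14 on the controls and 9.98, 9.86 and 9.50 on the SetD8 arrays. The groups did not overlap, though control 3 was close to SetD8 1, and the wide spread left a difference of −0.76 ± 0.22 (1.70-fold lower, 95% interval −1.29 to −0.23) with a limma adjusted p of 0.156. Parp1, which senses strand breaks by poly(ADP-ribosyl)ation, differed by −0.30 ± 0.16, Msh6, a mismatch recognition subunit, by −0.13 ± 0.13, and Ung, the uracil glycosylase, by −0.12 ± 0.16. The arrays of all 3 overlapped. Xrcc1, the scaffold of single-strand break repair, was 12.10, 12.09 and 12.15 on the controls and 12.16, 12.45 and 12.04 on the SetD8 arrays. SetD8 2 was the high array and SetD8 3 the lowest of all, so no direction was resolved at 0.10 ± 0.14. The 5 mismatch and excision genes had a median of −0.13 with 4 below 0, and −0.32 with 5 below 0 at the 75th percentile scaling. Differences between the 7 groups of genes were not tested.

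**Figure D3:**
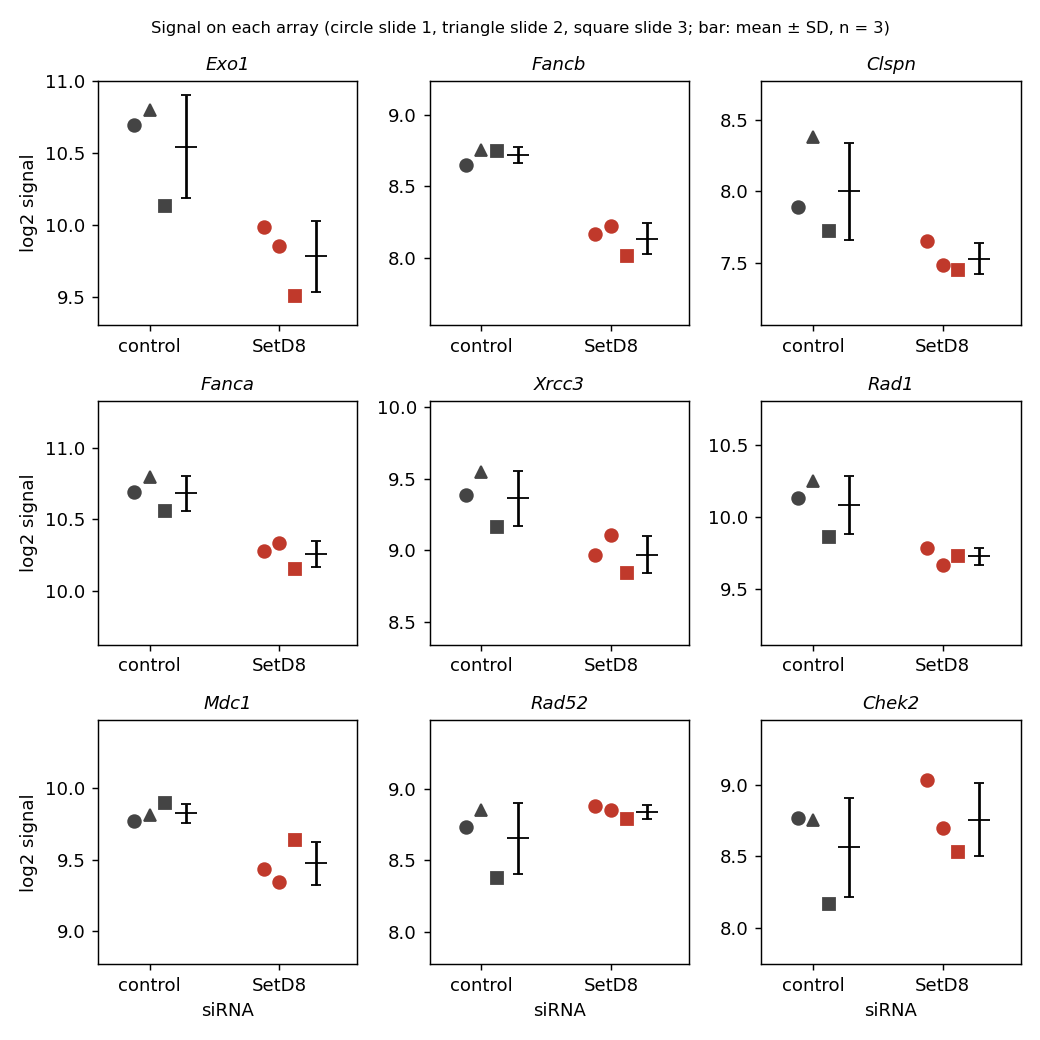
Log2 signal after normexp and quantile normalization (y axis) of 9 genes on the 3 control and 3 SetD8 siRNA arrays, with the slide of each array as the symbol and the mean ± SD beside each group. Exo1, Fancb, Clspn, Fanca, Xrcc3, Rad1 and Mdc1 had no overlap between groups, while Rad52 and Chek2 overlapped, with control 3 as their lowest array.

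The pattern over arrays was not the same in the 3 controls. After normexp and quantile normalization control 2 was the highest array for 23 of the 36 genes, while control 3 was the lowest for 9, SetD8 3 for 14 and SetD8 2 for 11. At the 75th percentile scaling control 2 was highest for 33 and control 3 lowest for 25. Control 2 was also the array with the smallest share of spots well above background and control 3 the one with the largest, and the part of this in the members' values was not tested. Without control 2 the members' median was −0.16 after normexp and quantile normalization and −0.09 at the 75th percentile scaling, and without control 3 it was −0.27 and −0.68.

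Within slides, where control 2 has no partner, the direction held more clearly on slide 1 than on slide 3. On slide 1, SetD8 1 and 2 against control 1 gave a median of −0.24 with 31 of 36 below 0. Over all genes the slide 1 median was 0.003 with 7152 of 14425 below 0. On slide 3, SetD8 3 against control 3 gave −0.09 with 21 below 0, beside 0.05 over all genes with 6521 of 14425 below 0. For genes well above background on all arrays the medians were −0.03 on slide 1 and 0.11 on slide 3. Of the 36 members 19 were below 0 within both slides, beside 25.8% of all genes. These 19 hold 6 of the 8 sensors and mediators and both Ku genes, but 1 of 4 kinases and 3 of 6 Fanconi genes. Exo1 differed by −0.78 on slide 1 and −0.63 on slide 3, and Fancb by −0.46 and −0.73. With slide as a block the members' median was −0.18 with 29 below 0, beside a median of 0.01 over all genes. At the 75th percentile scaling the slides opposed each other: the members' median was −0.47 on slide 1 and 0.38 on slide 3, and −0.14 with slide as a block. On slide 3 the median was 0.33 for all genes and 0.46 for those well above background on all arrays. So at that scaling the members did not lie below 0, or below all genes, within slide 3, but their median was below that of the genes well above background.

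**Figure D4:**
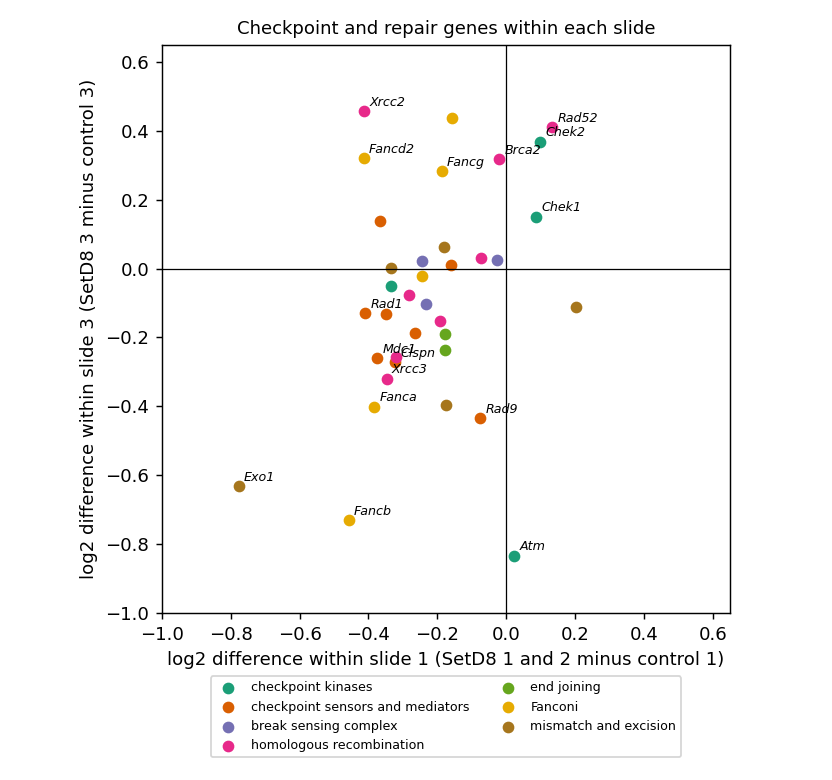
Difference of each of the 36 genes within slide 1 (x axis, mean of SetD8 1 and 2 minus control 1) and within slide 3 (y axis, SetD8 3 minus control 3), log2 after normexp and quantile normalization, coloured by functional group. The lower left part holds 19 genes, with Exo1 and Fancb farthest out, while Rad52, Chek2 and Chek1 lie above 0 on both slides.

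Of the wider set of 96 checkpoint and repair genes that are not among the 36, 94 were tested (Ercc6 and Uimc1 were not kept). After normexp and quantile normalization 68 of 94 differences were below 0, with a median of −0.16, beside 45.7% of all genes below 0. By limma with Benjamini-Hochberg adjustment 1 of the 94 was called higher and 0 lower, beside 1.4% and 0.25% of all genes. With the 75th percentile scaling 75 were below 0 with a median of −0.32, and 0 were called, beside 0% of all genes. The gene that rose was Ercc5, the nuclease of nucleotide excision repair that cuts on the 3′ side of a lesion. Its signals were 9.26, 9.12 and 9.03 on the controls and 10.07, 10.12 and 10.35 on the SetD8 arrays, with no overlap. The difference was 1.04 ± 0.13, 2.06-fold higher, with a limma adjusted p of 0.0228. It was 1.02 ± 0.40 at the 75th percentile scaling, with a limma adjusted p of 0.928. After normexp and quantile normalization with the slide as a block the limma adjusted p was 0.105. When control 1, control 2, SetD8 1, SetD8 2 or SetD8 3 was left out it was between 0.0516 and 0.123, so the call was lost. Calls also fell over all genes. The share called higher was 0.0901% with the slide as a block, 0.645% without control 2 and 0.0347% without SetD8 3. It was 0% without control 1, SetD8 1 or SetD8 2. Among the higher genes with the smallest p-values, Polk, a translesion polymerase, differed by 0.81 ± 0.17, Rad51d, which acts in recombination, by 0.67 ± 0.13, and Fance, a Fanconi core subunit, by 0.49 ± 0.12. These did not pass the limma test, with adjusted p-values of 0.0744, 0.0679 and 0.112.

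Of the lower genes of the wider set, those with the smallest p-values were H2afx, Usp1, Cdc25a and Rpa2. H2afx, the histone variant phosphorylated at breaks and read by MDC1, was 12.66, 12.75 and 12.95 on the controls and 11.91, 11.59 and 12.17 on the SetD8 arrays. Its groups lay well apart, with a difference of −0.89 ± 0.18 and a limma adjusted p of 0.0681. Usp1, the enzyme that removes ubiquitin from FANCD2, differed by −0.72 ± 0.13, Cdc25a, the phosphatase that checkpoint kinases mark for destruction, by −0.58 ± 0.11, and Rpa2, a subunit of the single-strand binding protein RPA, by −0.51 ± 0.10, none called. Their limma adjusted p-values were 0.0556, 0.0612 and 0.0732. Genes of the wider set were named in each direction by rule, so examples of both were bound to appear. Fancb lay below 0 beside Fance above it, and Xrcc3 below 0 beside Rad51d above it, none of them called.

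Genes of DNA replication and division, which many repair genes accompany in cycling cells, were set beside the 36. Of 22 listed, 21 were tested, 20 were below 0 with a median of −0.46, and 0 were called. Of all genes 0.25% were called lower and 1.4% higher. Pcna, the sliding clamp of replication, differed by −0.76 ± 0.14 and Mcm10, an initiation factor, by −0.68 ± 0.13, with limma adjusted p-values of 0.0627 and 0.0598, while the mitotic kinase gene Cdk1 differed by 0.05 ± 0.30. Most p53 target genes went the other way: of 12 listed, 11 were tested and the median was 1.15. Still, 2 of the 11 were below 0, the lowest at −0.29. By limma with Benjamini-Hochberg adjustment 7 rose (Cdkn1a, Bax, Bbc3, Ccng1, Phlda3, Trp53inp1 and Zmat3). Cdkn1a, the cell cycle inhibitor p21, rose by 1.37 ± 0.14 with an adjusted p of 0.0119 in limma, and Phlda3 rose by 2.70 ± 0.24 with 0.00946. With the slide as a block these were 0.0567 and 0.0376, and Phlda3 alone of the 11 was called, beside 0.0901% of all genes called higher. Without control 2 the count of p53 targets called was 5, and it was 0 without control 1, SetD8 1, SetD8 2 or SetD8 3, with medians of 1.14 to 1.29. The share of all genes called higher was 0.645% without control 2 and 0.0347% without SetD8 3. It was 0% without control 1, SetD8 1 or SetD8 2, so the counts of 0 there were not particular to the p53 targets. At the 75th percentile scaling 0 genes of either list were called, beside 0% of all genes, with medians of −0.63 and 1.04. Signals downstream of damage kinases act on proteins, which these arrays do not measure.

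**Figure D5:**
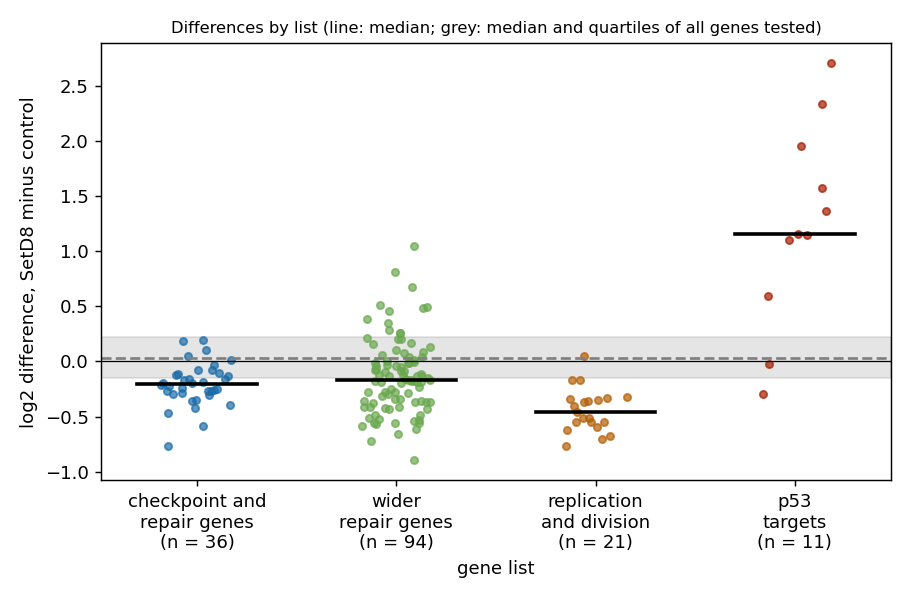
Difference of each gene, SetD8 siRNA minus control siRNA, log2 after normexp and quantile normalization, for the 36 checkpoint and repair genes, the wider repair set (94 genes), replication and division genes (21) and p53 targets (11). Black lines are medians (−0.21, −0.16, −0.46 and 1.15), the grey band spans the quartiles of all genes tested and the dashed line is their median.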

How the data were processed

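RNA of 3 control and 3 SetD8 siRNA samples was hybridised to 1-colour Cy3 Agilent arrays; titles gave groups and replicate numbers. Per the file headers, the deposited files are output of Agilent Feature Extraction 10.7.3.1 with linear intensity for every spot and probes placed on mm9; the authors' series matrix holds the same processed intensity, matching on 100% of values. The submitters' processing notes name limma; its version and the authors' normalization were not given in the sources used here. Control spots and 139 to 176 flagged spots per array were left out, 0 were saturated, and replicate spots were averaged. Probes were named through a RefSeq table of GRCm38.p6, used for names and promoter windows; of 55681 probes, 24443 matched no gene. Probes stayed in if each array of either group, or of both, was well above background.

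The main setting was log2 of the processed signal minus each array's 75th percentile; normexp (offset 50) on mean and median local background signals with quantile normalization was the second, used because its residual spread was smaller for values on single arrays and for the differences, errors and adjusted p-values that name no setting. The main setting called 0 genes. The offset shrinks the changes of dim genes. A two-sided test with limma 3.58.1 (lmFit, eBayes, R 4.3.3) was fitted on all genes with a Benjamini-Hochberg threshold of 0.05. The code was run on simulated data with independent errors and no slide or array effects, which cannot show how the test behaves on these arrays. Permuting 3 against 3 arrays exactly cannot go below p = 0.1, the value for both Setd8 probes. Alternatives were other backgrounds, scalings, filters, gene summaries, moderation, the slide or replicate number as a block, and leaving out each array.

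The members and the gene lists were chosen with earlier results of these data known. Values on every array are given for members with the largest difference in each direction within a group of genes and those whose arrays did not overlap. They are also given for the member whose probes disagreed in sign after normexp and quantile normalization. Of the wider list, the 4 with the smallest p in each direction were named. Other genes named beside them, Gp1ba, Cd68, Pcna, Mcm10, Cdk1, Cdkn1a and Phlda3 with the called p53 targets, were picked with their values in view. Precision is limited by the number of arrays.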

Additional observations from a re-analysis of the deposited data

How the results depend on the processing

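Of the 36 genes, 23 kept the sign of their difference under all 18 alternatives of the 75th percentile scaling and 26 under all 13 of normexp and quantile normalization. Calls appeared under the latter in these cases: 1 member with only probes well above background on all arrays (Fancb, limma adjusted p of 0.0303) and 1 with trend and robust moderation (Exo1, limma adjusted p of 0.0459). The cause of either call was not tested. The same 2 changes called 3 and 4 genes higher and 7 and 9 lower of the wider repair set, 8 and 12 lower of the replication and division genes, and 9 higher of the p53 targets; of all genes they called 4.05% and 4.39% higher and 1.74% and 2.52% lower, against 1.4% and 0.25%. Scaling to each array's median moved the members' median from −0.38 to −0.89, where the median of all genes was −0.46. Leaving out 1 array in turn gave medians of −0.68 (without control 3) to −0.09 (without control 2) at the 75th percentile scaling and −0.27 to −0.16 after normexp and quantile normalization, with 0 members called in each.

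Among the alternatives to the 75th percentile scaling, the Setd8 difference passed the limma threshold in some and not in others. It passed at −2.23 with normexp and the 75th percentile, −2.10 with quantile normalization and −2.10 with detected probes. It also passed at −2.08 with normexp and quantile normalization, −2.23 with probes above background on all arrays and −1.95 with slide as a block. It did not pass with median scaling, the series matrix values, the mean of probes, no filter or the replicate block. With trend and robust moderation it also did not pass (limma adjusted p of 0.0522). With 1 array left out it ran from −2.69 to −1.85, and only the fit without control 2 passed (limma adjusted p of 0.00913). After normexp and quantile normalization leaving out 1 array gave −2.19 to −2.01.

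Same-numbered arrays did not consistently deviate together: their deviations correlated at 0.183, −0.253 and −0.193 after normexp and quantile normalization. These values cannot decide whether same-numbered samples were prepared together, because some same-numbered arrays shared a slide while control 2 and SetD8 2 did not. With the replicate block 0 members were called in both settings, beside 0% of all genes. The members' medians stayed −0.38 and −0.21, and the Setd8 difference of −2.08 had a limma adjusted p of 0.14. All 36 members were well above background on all 6 arrays; the offset of 50 shrinks differences of the dim ones most.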
